A study of Bos taurus with 52 samples.

Results

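The endometrium of infertile heifers was compared with that of subfertile heifers, in animals that were not pregnant. The 10 libraries were those titled NP-IF (non-pregnant, infertile; 5 animals) and NP-SF (non-pregnant, subfertile; 5 animals), out of 52 libraries in the whole series. Another non-pregnant group, NP-HF (high fertile; 5 animals), is placed beside them where a level needs a reference, and the fit also held 2 groups of 5 pregnant animals, P-HF and P-SF. The libraries were made from mRNA of endometrium with a strand-marking kit, and the deposited values were counts of reads per gene. No treatment, transgene or allele is named for any of these groups. The criterion behind the fertility classes, the day on which the non-pregnant tissue was taken, the ages of the animals and any batch are not stated by the labels used here. None of the 52 libraries is labelled as pregnant and infertile, so the infertile class was seen in non-pregnant tissue alone. Of 31651 named genes in the table, 19606 had counts high enough to be tested.

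The endometrium is the lining of the uterus: a surface epithelium partly made of ciliated cells, glands that secrete into the lumen, and a stroma with fibroblasts, vessels and immune cells. Its gene expression follows the ovarian cycle. Progesterone from the corpus luteum turns on secretion by the glands, and the later loss of its receptor from epithelium is followed by oestrogen receptor and oxytocin receptor expression and by the prostaglandin pulses that end the cycle. Fertility classes of heifers could differ in any of these layers. The comparison asks whether the non-pregnant tissue of animals labelled infertile is distinct from that of animals labelled subfertile.

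The 2 groups were alike in depth. NP-IF libraries held 19 to 26.0 M reads and NP-SF libraries 20.4 to 25.7 M (exact permutation test, two-sided, adjusted p = 0.865 over 3 library measures), with 23485 to 24500 and 23599 to 24224 genes detected. The markers of the tissue were present in all 10: EPCAM, an epithelial adhesion molecule, lay between 397 and 594 CPM (read counts scaled by library size), and COL1A1, the main fibroblast collagen, between 833 and 1718 CPM. Red blood cell genes were low, with HBA at 0 to 0.58 CPM. The root mean square distance between 2 libraries, in log2 CPM, had a median of 0.637 within NP-IF, 0.637 within NP-SF and 0.631 between the groups. By this median, libraries of different groups were no further apart than libraries of the same group. The first principal component, with 19.3% of the variance, did not part the groups. Its lowest libraries were NP-IF 5 (-56.8), NP-SF 2 (-31.9) and NP-SF 3 (-22.4), and these were also the 3 lowest for the motile cilia list, whose mean log2(CPM + 1) was 3.95, 4.13 and 4.47 there and 4.84 to 5.30 in the other 7.

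**Figure D1:**
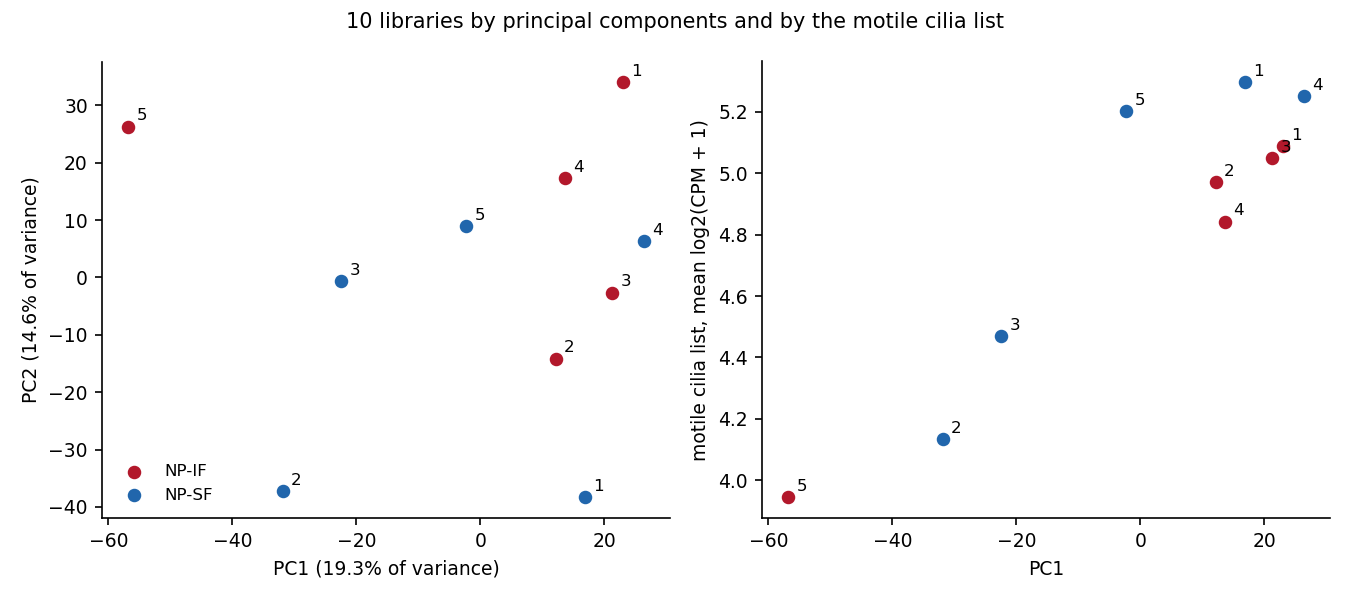
Left, the 10 libraries on the first 2 principal components of log2 CPM (19.3% and 14.6% of the variance), numbered by replicate, NP-IF in red and NP-SF in blue. Right, the first component against the mean log2(CPM + 1) of the motile cilia genes in each library; the 2 colours mix in both panels, and NP-IF 5, NP-SF 2 and NP-SF 3 lie lowest on both axes of the right panel.

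No gene differed between infertile and subfertile endometrium at an adjusted p under 0.05 (quasi-likelihood test of edgeR, Benjamini-Hochberg); the share was 0% of 19606 genes and the smallest adjusted p 0.133. Without adjustment, 445 genes with higher values in NP-IF (2.27%) and 339 with lower values (1.73%) had a p under 0.05, 784 in all, where 980.3 are expected if no gene differs. By limma-voom 0 genes passed and 768 had an unadjusted p under 0.05. By DESeq2 10 genes passed (0.0510%), 7 with higher and 3 with lower values in NP-IF, and 878 had an unadjusted p under 0.05. Counted without a model, the 5 values of NP-IF all lay above the 5 of NP-SF in 70 genes (0.357%) and all below in 58 genes (0.296%). Whether these counts exceed those expected if no gene differs was not tested. The genes ranked first below were taken by p and by the order of library pairs, which favours genes without overlap.

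The data also bound how large a difference could be. For 15393 genes (78.5%) the 95% interval of the fold change lay inside a 2-fold change either way, and the median log2 fold change over all genes was -0.0041. This share was 98.2% for the 2490 genes at 100 CPM or more, 95.7% at 10 to 100 CPM, 70.7% at 1 to 10 CPM and 16.2% for the 2634 genes under 1 CPM. For most genes under 1 CPM the interval therefore reached a 2-fold difference, at this depth and with 5 animals a group. The power to detect such a difference was not computed. In the same fit no gene passed between NP-SF and NP-HF (0%; 709 genes at an unadjusted p under 0.05) or between NP-IF and NP-HF (0%; 1070 genes). By DESeq2 4 and 2 genes passed in these, and by limma-voom none did (671 and 962 genes at an unadjusted p under 0.05). These 2 comparisons share libraries with the one between NP-IF and NP-SF.

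**Figure D2:**
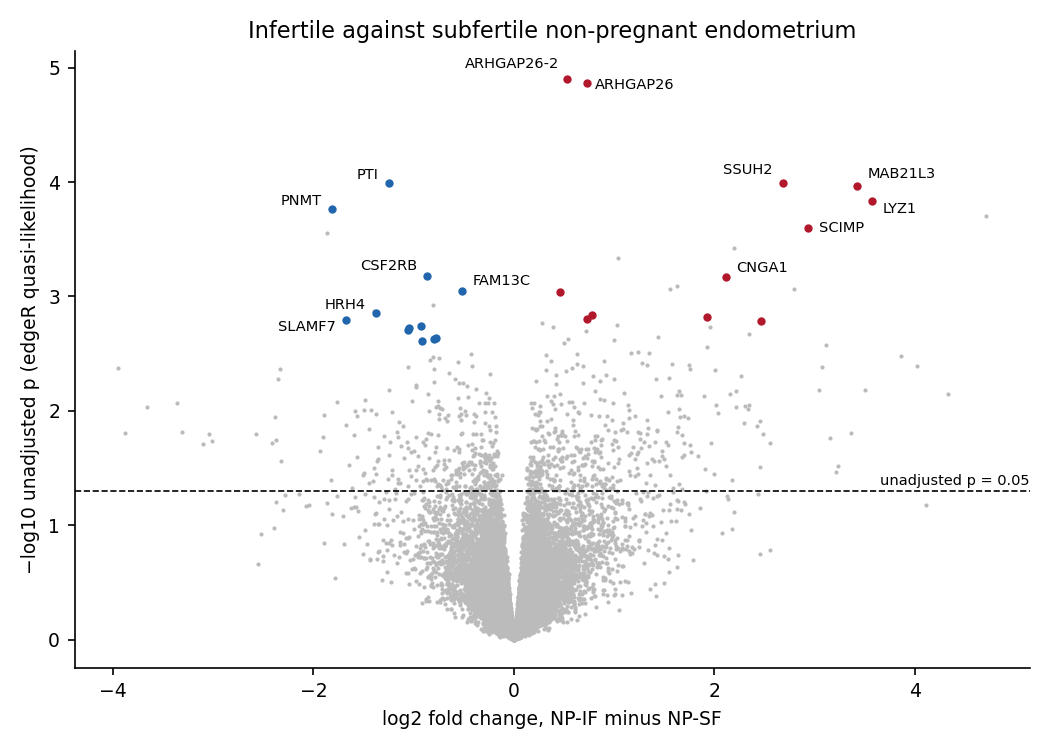
Each point is one of 19606 genes, with the log2 fold change of NP-IF over NP-SF on the x axis and −log10 of the unadjusted edgeR p on the y axis. Red and blue points are the 12 genes that rank first in each direction by the rule for named genes, and none of them reached an adjusted p under 0.05; ARHGAP26 and its second entry, ARHGAP26-2, stand highest.

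Among the genes with higher values in NP-IF, ARHGAP26-2 ranked first by p and ARHGAP26 next. ARHGAP26 encodes a GTPase-activating protein that binds focal adhesion kinase. Its level was 15.5, 14.3, 13.6, 13.7 and 14.1 CPM in the NP-IF libraries and 6.77, 8.14, 8.86, 8.79 and 10.44 CPM in the NP-SF libraries, so that the groups did not overlap. The log2 fold change was 0.73 ± 0.13 (SE; 95% interval 0.45 to 1.0; edgeR adjusted p = 0.133), and the NP-HF mean of 12.9 ± 1.78 CPM (SD, n = 5) lay nearer to NP-IF. The table has a second entry for the same symbol, ARHGAP26-2, at 39.8 to 46.8 CPM in NP-IF and 24.8 to 33.5 CPM in NP-SF, with a log2 fold change of 0.53 ± 0.10 (edgeR adjusted p = 0.133). Both entries passed in DESeq2 (adjusted p = 0.00085). How reads were shared between the 2 entries is not stated by the labels or notes used here, and they are not independent observations.

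In a second set of genes the same pair of infertile animals stood highest. LYZ1, a lysozyme of the family that cleaves bacterial cell walls, was at 1101, 94.4, 86.1, 400.4 and 22.7 CPM in NP-IF against 22.8, 36.3, 14.2, 20.4 and 50.1 CPM in NP-SF. NP-IF 1 and NP-IF 4 were far above the rest, while NP-IF 5 lay within the subfertile range. The log2 fold change was 3.57 ± 0.79, and without NP-IF replicate 1 it was 2.39. Lysozymes are a multigene family in cattle, so that reads may be split among copies. SSUH2 had 83.1, 8.53, 21.4, 53.8 and 4.03 CPM in NP-IF and 2.61 to 7.84 CPM in NP-SF (log2 fold change 2.68 ± 0.57). MAB21L3, of the mab-21 family, had 33.3, 2.72, 5.37, 17.7 and 1.25 CPM against 0.422 to 2.21 CPM (3.42 ± 0.74). The same 2 animals were again highest in both genes. SCIMP, a membrane adaptor of antigen-presenting cells, had 50, 2.93, 5.41, 14.8 and 0.85 CPM against 0.672 to 3.71 CPM (2.94 ± 0.68, and 1.64 without NP-IF replicate 1). These 4 genes passed in DESeq2 (adjusted p from 0.0063 to 0.0082) and had edgeR adjusted p of 0.427 to 0.544. Of the 12 genes that ranked first in this direction, NP-IF 1 was the highest NP-IF library in 10, NP-IF 1 and 4 were the 2 highest in 9, and NP-IF 5 was the lowest in 9. The NP-HF mean was 90.7 ± 67.6 CPM for LYZ1 and 7.58 ± 3.24 CPM for SSUH2.

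Among the 12 genes that ranked first in this direction, CNGA1 and SNX22 were the others without overlap. CNGA1, the subunit of a cyclic nucleotide-gated channel, was at 2.83, 3.44, 2.77, 4.87 and 1.92 CPM in NP-IF and 0.493, 1.01, 0.46, 1.11 and 0.58 CPM in NP-SF, without overlap (log2 fold change 2.11 ± 0.54, edgeR adjusted p = 0.937). The NP-HF libraries spanned both groups, from 0.28 to 4.76 CPM. SNX22, a sorting nexin, had 8.10 to 9.39 CPM in NP-IF and 5.83 to 7.30 CPM in NP-SF (0.46 ± 0.12). In the remaining 4 genes NP-IF 1 and 4 were again the highest infertile libraries. STON2, an endocytic adaptor, had means of 26.2 ± 7.92 and 15.3 ± 3.73 CPM (SD, n = 5 each). SRPX, a sushi-repeat protein, had means of 17.1 ± 5.46 and 10.3 ± 1.22 CPM. CASP16 and CYP2C87 were low, with means of 2.64 and 1.86 CPM in NP-IF and 0.691 and 0.334 CPM in NP-SF, and both overlapped. Over the 12 genes the NP-HF mean lay nearer to NP-SF in 7 and nearer to NP-IF in 5, on a log2 scale.

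**Figure D3:**
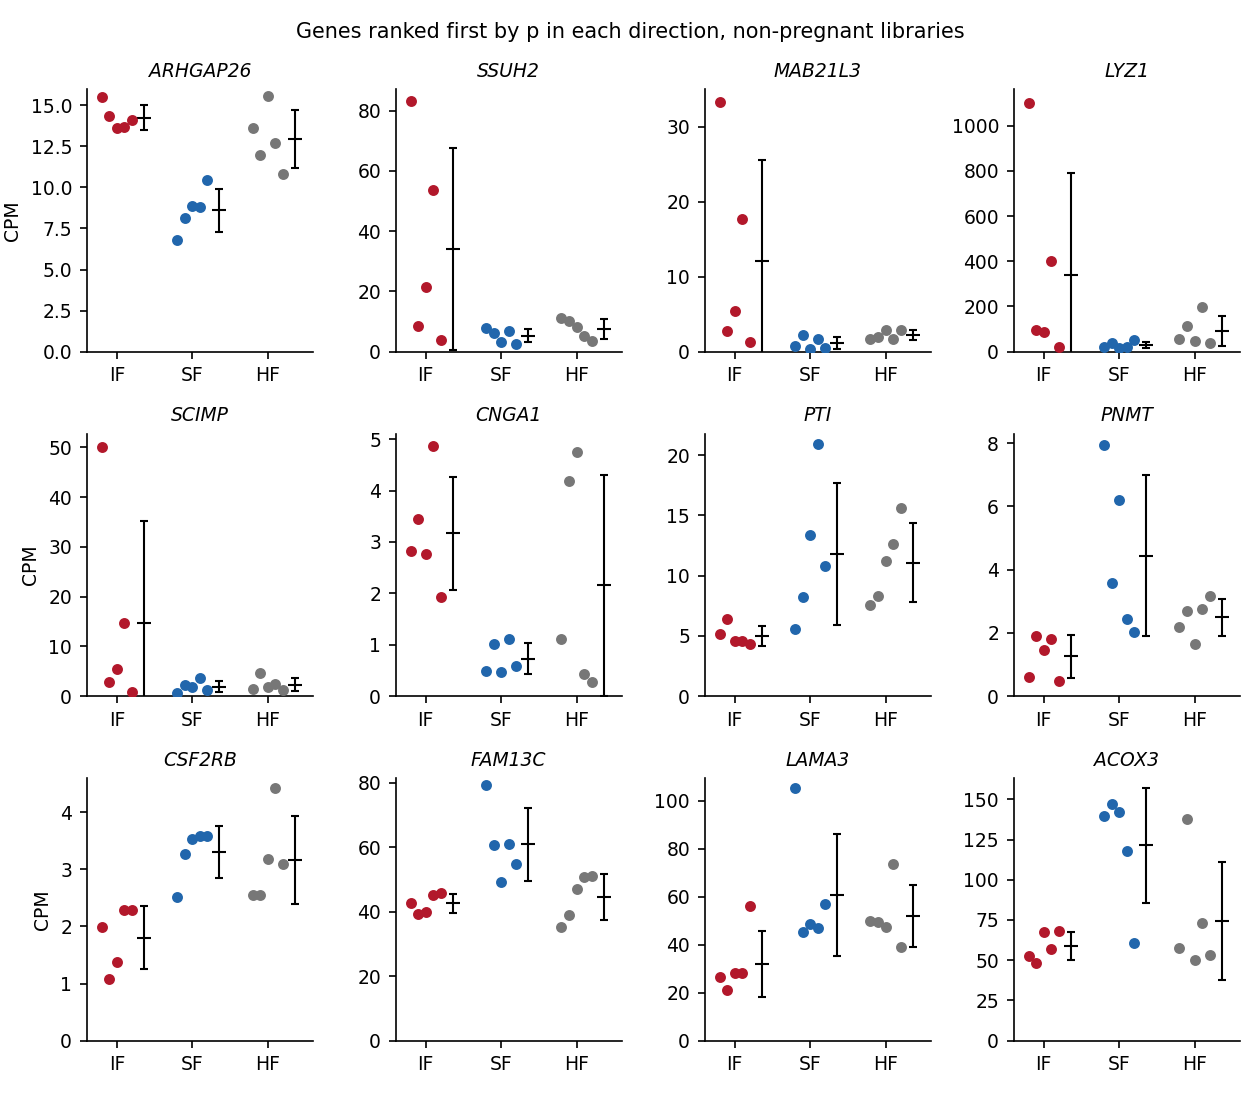
Scaled CPM of 12 genes that ranked first by p, one panel each, in the 5 NP-IF (red), 5 NP-SF (blue) and 5 NP-HF (grey) libraries; points run from replicate 1 on the left to 5 on the right, and the bar is the mean with SD, clipped at 0. ARHGAP26, CNGA1, PNMT, CSF2RB and FAM13C have no overlap between NP-IF and NP-SF, while the NP-IF means of SSUH2, MAB21L3, LYZ1 and SCIMP rest on replicates 1 and 4.

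Among the genes with lower values in NP-IF, PTI and PNMT ranked first. PTI, a Kunitz-type trypsin inhibitor, was at 5.12, 6.42, 4.54, 4.54 and 4.34 CPM in NP-IF and 5.60, 8.24, 13.4, 21.0 and 10.8 CPM in NP-SF. Only the lowest subfertile animal fell inside the infertile range (log2 fold change -1.24 ± 0.27, edgeR adjusted p = 0.427), and the NP-HF mean was 11.1 ± 3.27 CPM. PNMT, the enzyme that turns noradrenaline into adrenaline, had 0.596, 1.90, 1.47, 1.82 and 0.492 CPM in NP-IF and 7.93, 3.59, 6.22, 2.43 and 2.03 CPM in NP-SF. Its groups did not overlap (-1.82 ± 0.41, edgeR adjusted p = 0.483), and NP-HF lay between them at 2.49 ± 0.586 CPM. Both passed in DESeq2 (adjusted p = 0.011 and 0.013).

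The next genes included receptors of immune cells and a chain of the basement membrane. CSF2RB, the shared beta chain of the receptors for GM-CSF and interleukins of its family, had 1.08 to 2.29 CPM in NP-IF and 2.51 to 3.59 CPM in NP-SF (-0.86 ± 0.22), without overlap, and NP-HF had a mean of 3.16 CPM. SIRPB2, a signal-regulatory protein, had 0.547 to 0.909 CPM against 0.918 to 2.24 CPM. HRH4, the histamine H4 receptor, had means of 0.499 ± 0.0868 and 1.3 ± 0.704 CPM. These 3 genes were all of low abundance. SLAMF7, a surface receptor of plasma cells and natural killer cells, reached 32.3 CPM in NP-SF 2 and 14.6 CPM in NP-SF 5, and the other 3 subfertile libraries (3.16 to 5.56 CPM) overlapped with NP-IF (2.67 to 5.28 CPM). Its log2 fold change of -1.67 ± 0.47 was -0.87 without NP-SF replicate 2. In that library the 10 tested B and plasma cell markers had a mean log2(CPM + 1) of 2.87. The other subfertile libraries had 1.56 to 1.78 and the infertile ones 1.58 to 1.79, and none of the 3 markers named below was at 0 in any library. The part of these cells in the SLAMF7 values was not tested. LAMA3, the alpha chain of the epithelial basement membrane laminin, had 26.3, 21.3, 28.1, 28.0 and 56.1 CPM in NP-IF and 105, 45.2, 48.7, 47.1 and 57.2 CPM in NP-SF. Apart from NP-IF 5 the infertile animals lay below all subfertile ones (-0.92 ± 0.26).

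ACOX3, a peroxisomal oxidase of branched-chain fatty acids, had 52.8, 48.5, 67.6, 56.9 and 68.4 CPM in NP-IF and 140, 147, 142, 118 and 60.6 CPM in NP-SF. Here 4 of the 5 subfertile animals stood above all infertile ones (-1.05 ± 0.30), and NP-HF, at 74.4 ± 36.6 CPM, lay nearer to NP-IF. FAM13C had 39.2 to 45.7 CPM against 49.1 to 79.2 CPM without overlap, and NP-HF (44.6 ± 7.09 CPM) was again nearer to NP-IF. RERGL, of the Ras superfamily, had 5.12 to 7.70 CPM against 7.77 to 14.3 CPM. RRAGD, a Rag GTPase of amino acid sensing, had 0.617 to 1.39 CPM against 1.52 to 2.11 CPM. Neither overlapped, by a narrow margin in both. PCDH17, a protocadherin, had means of 7.89 ± 2.92 and 14.9 ± 4.63 CPM and overlapped. Of the 12 genes that ranked first in this direction, the NP-HF mean lay nearer to NP-SF in 10 and nearer to NP-IF in 2, on a log2 scale.

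The oestrogen and progesterone receptors were at closely similar levels. Oestrogen receptor ESR1 was at 6.66, 7.40, 10.7, 9.77 and 8.41 CPM in NP-IF and 5.20, 10.8, 6.98, 10.9 and 9.04 CPM in NP-SF, a log2 fold change of 0.0021 ± 0.19 with a 95% interval of -0.38 to 0.39. Progesterone receptor PGR had means of 5.69 ± 1.21 and 6.09 ± 1.26 CPM (SD, n = 5 each; log2 fold change -0.10 ± 0.26). Both receptors overlapped over nearly their whole range, and the NP-HF means were 8.70 and 6.84 CPM. NR3C2, the mineralocorticoid receptor, had means of 6.47 and 8.67 CPM. The receptor list had 0 of 21 tested members called, 14 with positive and 7 with negative estimates, and a median log2 fold change of 0.05. For 19 of the 21 the interval lay within 2-fold.

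The oxytocin receptor OXTR, which triggers the luteolytic prostaglandin pulses, had the largest estimate in that list. It was at 24.5, 4.83, 16.3, 29.3 and 19.7 CPM in NP-IF and 6.28, 9.80, 8.75, 17.8 and 3.87 CPM in NP-SF. The groups overlapped through NP-IF 2 and NP-SF 4, and the log2 fold change of 1.03 ± 0.47 (95% interval 0.05 to 2.0) was not called (edgeR adjusted p = 0.999). The NP-HF libraries lay from 11.4 to 102.6 CPM. Against that group NP-SF had a log2 fold change of -2.38 ± 0.49 (edgeR adjusted p = 0.777) and NP-IF one of -1.35 ± 0.47 (edgeR adjusted p = 0.903).

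Genes of the glands and of the progesterone response showed no common direction. Of 26 tested progesterone-responsive genes 13 had positive and 13 negative estimates (median -0.03), and of 19 gland and secretory genes 9 and 10 (median -0.01), with 0 called in either. GRP, gastrin-releasing peptide from the glands, was the most abundant of those named, at 1945, 1803, 1636, 2067 and 2246 CPM in NP-IF and 943, 656, 1799, 1163 and 1149 CPM in NP-SF. Only NP-SF 3 reached the infertile range (log2 fold change 0.76 ± 0.28, edgeR adjusted p = 0.999). SERPINA14, the uterine serpin, had 35.0, 11.72, 6.06, 5.85 and 33.3 CPM against 3.54, 8.24, 10.6, 3.16 and 9.67 CPM. NP-IF 1 and NP-IF 5 were the high ones (1.38 ± 0.76), and NP-HF ranged from 1.94 to 71.4 CPM. FOXA2, the transcription factor of gland formation, had means of 24.5 ± 3.22 and 21.9 ± 4.08 CPM. SPP1, osteopontin, was at 0.276 to 1.61 CPM in all libraries except NP-SF 4 (5.46 CPM), and its log2 fold change of -1.18 ± 0.60 was -0.06 without that library. SLC2A1, a glucose transporter, had means of 110 ± 29.8 and 184 ± 82.2 CPM and DKK1, a WNT inhibitor, 4.48 ± 2.97 and 7.23 ± 4.52 CPM, both with overlap.

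**Figure D4:**
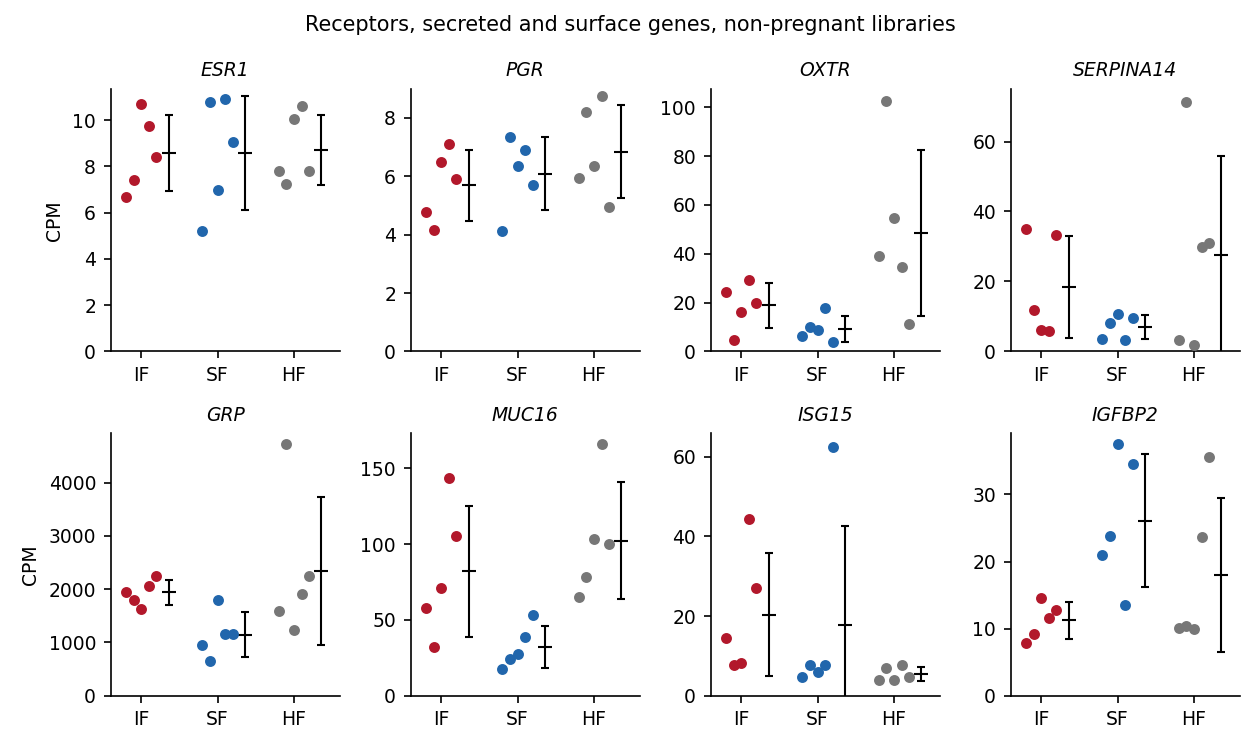
Scaled CPM of 8 receptor, secreted, surface and growth factor binding genes in the NP-IF (red), NP-SF (blue) and NP-HF (grey) libraries, replicates 1 to 5 from left to right, with mean and SD clipped at 0. ESR1 and PGR coincide in the 3 groups, OXTR, SERPINA14, GRP and MUC16 are lowest on average in NP-SF, and the ISG15 mean of NP-SF rests on replicate 5.

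Among mucin and adhesion genes MUC16, a large membrane mucin, had the largest estimate. It was at 58.2, 32.1, 70.8, 143.6 and 105 CPM in NP-IF and 17.5, 24.3, 27.7, 38.6 and 53.3 CPM in NP-SF. All infertile animals except NP-IF 2 lay above all subfertile ones (log2 fold change 1.35 ± 0.41, 95% interval 0.50 to 2.19, edgeR adjusted p = 0.999). The NP-HF mean was 102 ± 38.7 CPM, with a log2 fold change of -1.67 ± 0.41 for NP-SF against NP-HF and -0.32 ± 0.40 for NP-IF against NP-HF. The integrin beta chains ITGB6 (20.7 ± 4.22 and 32.7 ± 14.8 CPM) and ITGB3 (84.1 ± 16.2 and 114 ± 37.1 CPM) had lower means in NP-IF, with overlap. Across the 12 tested mucin and adhesion genes 5 estimates were positive and 7 negative. General epithelial markers were close: EPCAM had means of 471 ± 18.7 and 490 ± 93.7 CPM, and CDH1, E-cadherin, 156 ± 25.7 and 148 ± 28.9 CPM. Of 18 epithelial markers 0 were called and 16 had an interval within 2-fold.

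Motile cilia genes varied between animals more than between groups. FOXJ1, the regulator of ciliated cells, was at 70.3, 75.6, 64.9, 60.5 and 25.8 CPM in NP-IF and 85.8, 31.7, 43.8, 77.8 and 80.2 CPM in NP-SF. The axonemal dynein DNAH5 had 53.6 CPM in NP-IF 5 and 49.6 and 58.2 CPM in NP-SF 2 and 3, against 101 to 155 CPM in the other 7. Each group thus held animals of both kinds. In NP-HF FOXJ1 ranged from 16.2 to 113 CPM. Of 23 tested members 3 had positive and 20 negative estimates (median -0.10). Without NP-IF replicate 5 the counts were 16 and 7 (median 0.09), and without NP-SF replicate 2 they were 0 and 23 (median -0.24). Fewer ciliated cells and less RNA per ciliated cell cannot be told apart in bulk tissue, for this list as for the other cell types.

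No stromal, matrix or vessel gene was called, and most estimates were below 0: 14 of 16 for stromal markers, 20 of 30 for matrix and 13 of 18 for endothelium and vessels, where 49.0% of all genes had a positive estimate. Members of a list share the same libraries and can move together, so such counts, in any list, are not counts of independent observations. The stromal list mean of log2(CPM + 1) overlapped, at 8.36 to 8.90 in NP-IF and 8.52 to 9.02 in NP-SF. Without NP-IF replicate 1 the matrix list had 15 positive and 15 negative estimates. Stromal markers then had 4 and 12, and endothelium and vessels 5 and 13. COL1A1 had means of 1264 ± 365 and 1139 ± 157 CPM (log2 fold change 0.15 ± 0.24), and vimentin (VIM) 475 ± 86.2 and 498 ± 75.4 CPM. HOXA10, a stromal transcription factor of receptivity, had means of 67.3 ± 11.6 and 78.8 ± 13.6 CPM. None of the 16 stromal markers was called and all 16 had an interval within 2-fold, with a median of -0.12. Among 30 matrix genes (median -0.07) ADAMTS1, a metalloprotease induced by progesterone, was at 170 to 267 CPM in NP-IF and 232 to 450 CPM in NP-SF, where NP-SF 2 was the high one (-0.41 ± 0.19, and -0.19 without it). Endothelial markers PECAM1 (52.9 ± 19 and 60.3 ± 4.11 CPM) and CDH5 (30.8 ± 7.45 and 32.3 ± 5.72 CPM) overlapped. ANGPT1, a vessel growth factor, was low in both groups, at 0.454 ± 0.21 and 0.776 ± 0.279 CPM (-0.79 ± 0.36). LYVE1, a marker of lymphatic vessels named after its values were seen, had the highest estimate of that list (1.11 ± 0.71). The pericyte gene RGS5, a regulator of G protein signalling, was at 104, 88.0, 80.8, 80.9 and 110 CPM in NP-IF and 147, 162, 101, 157 and 114 CPM in NP-SF. Of the subfertile animals only NP-SF 3 lay inside the infertile range (-0.56 ± 0.17), and NP-HF had a mean of 128 CPM. The smooth muscle genes ACTA2 and MYH11 had log2 fold changes of 0.04 ± 0.36 and -0.01 ± 0.27.

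Interferon-stimulated genes, which in a pregnant ruminant respond to interferon tau from the conceptus, were measured here in animals labelled non-pregnant. Whether any of these animals had carried an embryo before sampling is not stated by the labels used here. Of 53 tested members 47 had positive and 6 negative estimates and 0 were called, with a median log2 fold change of 0.20, where 49.0% of all genes had a positive estimate. The list mean of log2(CPM + 1) was 4.85, 4.56, 4.36, 5.53 and 5.18 in NP-IF and 4.36, 4.60, 4.43, 4.51 and 5.36 in NP-SF. NP-IF 4 was the highest, then NP-SF 5, and NP-IF 5 and NP-IF 1 also lay above the remaining subfertile libraries. Without NP-SF replicate 5 the median was 0.45, and without NP-IF replicate 4 it was 0.03 with 31 positive and 22 negative estimates. ISG15, a ubiquitin-like modifier, had 14.5, 7.71, 8.31, 44.3 and 27.1 CPM in NP-IF and 4.66, 7.82, 5.91, 7.64 and 62.5 CPM in NP-SF. Its log2 fold change of 0.22 ± 0.60 was 1.65 without NP-SF replicate 5 and -0.29 without NP-IF replicate 4. MX2, an antiviral GTPase, had 56.7 CPM in NP-IF 4 and 51.4 CPM in NP-SF 5, against 4.64 to 17.4 CPM in the other 8. In NP-HF ISG15 was at 3.89 to 7.76 CPM. OAS1X, of the oligoadenylate synthase family whose copies are similar in sequence, did not follow that order: NP-SF 5 was its lowest library (5.66 CPM), and the group means were 31.3 ± 17.1 and 12.4 ± 4.59 CPM (1.34 ± 0.50, edgeR adjusted p = 0.999). IFI27 had means of 85.5 ± 47.2 and 49.0 ± 17.1 CPM.

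Lymphoid and myeloid markers gave no called gene. The B and plasma cell list had the lowest median of all lists, -0.42 over 10 tested members (2 positive and 8 negative estimates), and it moved with single libraries. POU2AF1, a B cell coactivator, was at 10.0 CPM in that library and at 0.0967 to 0.939 CPM in the other 9, and its log2 fold change of -2.14 ± 1.05 was 0.75 without it. MZB1, a chaperone of antibody-secreting cells, was at 13.9 CPM there and at 0.538 to 2.37 CPM elsewhere. CD79A, of the B cell receptor, was at 3.31 CPM there and at 0.0897 to 0.967 CPM elsewhere. Without NP-SF replicate 2 the list had 6 positive and 4 negative estimates and a median of 0.02. Leaving out any other single library gave medians from -1.12 (without NP-IF replicate 2) to -0.50 (without NP-IF replicate 4) over 11 tested members, and the fit of the 10 libraries alone gave -0.05 over 7. T and natural killer cell genes had a median of -0.04 over 21, with CD3E, of the T cell receptor complex, at 7.54 ± 1.56 and 7.82 ± 2.69 CPM. CCL5, a chemokine of T and natural killer cells, was at 3.41 to 5.82 CPM and 2.84 to 4.06 CPM. Macrophage genes CD68 (6.23 ± 0.662 and 6.49 ± 0.628 CPM) and CSF1R (20.5 ± 5.70 and 19.9 ± 4.21 CPM) were level. TYROBP, a myeloid adaptor, had means of 2.44 ± 0.69 and 3.49 ± 0.731 CPM, and CPA3, a mast cell protease, 2.92 ± 0.579 and 4.08 ± 1.18 CPM. NP-HF means were 3.34 and 5.66 CPM for these. Neutrophil genes were too low to bound, with 1 of 16 intervals within 2-fold and S100A8 at 0 to 0.768 CPM.

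Of 24 antigen presentation genes 10 had positive and 14 negative estimates (median -0.03), and 22 had an interval within 2-fold. Without NP-IF replicate 4 the counts were 5 and 19 (median -0.11). B2M, the light chain of MHC class I, was at 538 ± 118 and 483 ± 17.2 CPM. TAP2 and BOLA-DMA had log2 fold changes of -0.33 ± 0.16 and -0.27 ± 0.18, and neither was called. In the complement list, with 11 positive and 11 negative estimates, C3 had means of 81.6 ± 25.9 and 76.8 ± 26.8 CPM. CFI, the protease that degrades C3b, was at 40.9, 15.6, 29.7, 42.7 and 105.8 CPM in NP-IF and 16.7, 13.8, 30.6, 32.6 and 23.6 CPM in NP-SF. Its log2 fold change of 1.0 ± 0.44 was 0.46 without NP-IF replicate 5. PTGS2, the inducible cyclooxygenase of the prostaglandin pathway, had means of 89.9 ± 27.1 and 113 ± 22.2 CPM, and AKR1B1, a prostaglandin F synthase of cattle, 222 ± 46.8 and 178 ± 27.8 CPM.

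The bounds on metabolic genes differed by list. The interval lay within 2-fold for 19 of 21 glycolysis, 31 of 34 lipid and 17 of 24 transport genes. All 29 nuclear respiratory chain subunits had an interval within 2-fold (median -0.03), with NDUFS1 at 110 ± 7.29 and 108 ± 5.72 CPM. The glycolytic kinase PGK1 had means of 101 ± 5.49 and 104 ± 13.8 CPM. PDK4, which holds pyruvate out of mitochondrial oxidation, had means of 220 ± 102 and 353 ± 111 CPM (-0.68 ± 0.34). SLC2A3, a high-affinity glucose transporter, was at 48.0, 25.5, 49.1, 55.0 and 63.3 CPM in NP-IF and 26.3, 30.4, 32.0, 28.5 and 32.7 CPM in NP-SF. All infertile animals but NP-IF 2 lay above the subfertile ones (0.68 ± 0.23, edgeR adjusted p = 0.999), while SLC2A1 had the opposite order of means. Of 34 lipid genes 21 had positive and 13 negative estimates (median 0.05). RXRA, a retinoid receptor that partners the PPARs, was at 46.4 to 54.3 CPM in NP-IF and 54.8 to 67.9 CPM in NP-SF, without overlap and with a small difference (-0.28 ± 0.10). APOE, a lipid carrier, had means of 168 ± 31.3 and 235 ± 70.8 CPM, and NP-HF one of 264 ± 32.3 CPM.

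No growth factor or cell cycle gene was called. IGFBP2, which binds insulin-like growth factors, was at 7.85, 9.15, 14.6, 11.6 and 12.8 CPM in NP-IF and 20.9, 23.7, 37.6, 13.6 and 34.6 CPM in NP-SF. Only NP-SF 4 fell inside the infertile range (-1.22 ± 0.43, edgeR adjusted p = 0.999), and NP-HF spanned both, from 9.93 to 35.6 CPM. IGFBP4 had means of 96.1 ± 11.73 and 121 ± 5.71 CPM, while IGF1 itself was at 114 ± 25.9 and 118 ± 22.7 CPM and WNT5A, a stromal WNT ligand, at 408 ± 31.4 and 407 ± 41.2 CPM. Cell cycle genes had 7 positive and 23 negative estimates out of 30 (median -0.13). Their levels were low: MKI67, a marker of dividing cells, was at 0.874 to 2.47 CPM in NP-IF and 1.52 to 2.42 CPM in NP-SF. AURKB, a mitotic kinase, had means of 0.706 ± 0.388 and 1.32 ± 0.288 CPM. The TGF-beta inhibitor SMAD7 had means of 30.8 ± 5.75 and 39.0 ± 7.52 CPM, and TGFB1 was at 10.8 CPM in both groups. The chaperone HSPA5 (352 ± 47.5 and 343 ± 36.1 CPM) and the immediate early genes FOS (50.8 ± 18.7 and 41.9 ± 13.4 CPM) and JUNB (34.3 ± 13.1 and 25.0 ± 3.18 CPM) overlapped.

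Over the 27 lists, 589 distinct genes were tested and 0 were called, with a smallest edgeR adjusted p of 0.999. At an unadjusted p under 0.05, 8 had higher and 17 lower values in NP-IF, 4.24% of the 589, beside 784 of the 19606 genes tested. The interval lay within 2-fold for 449 of them (76.2%). The list medians ran from -0.42 for B and plasma cells to 0.20 for interferon-stimulated genes, and 25 of 27 were within 0.2 of 0.

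**Figure D5:**
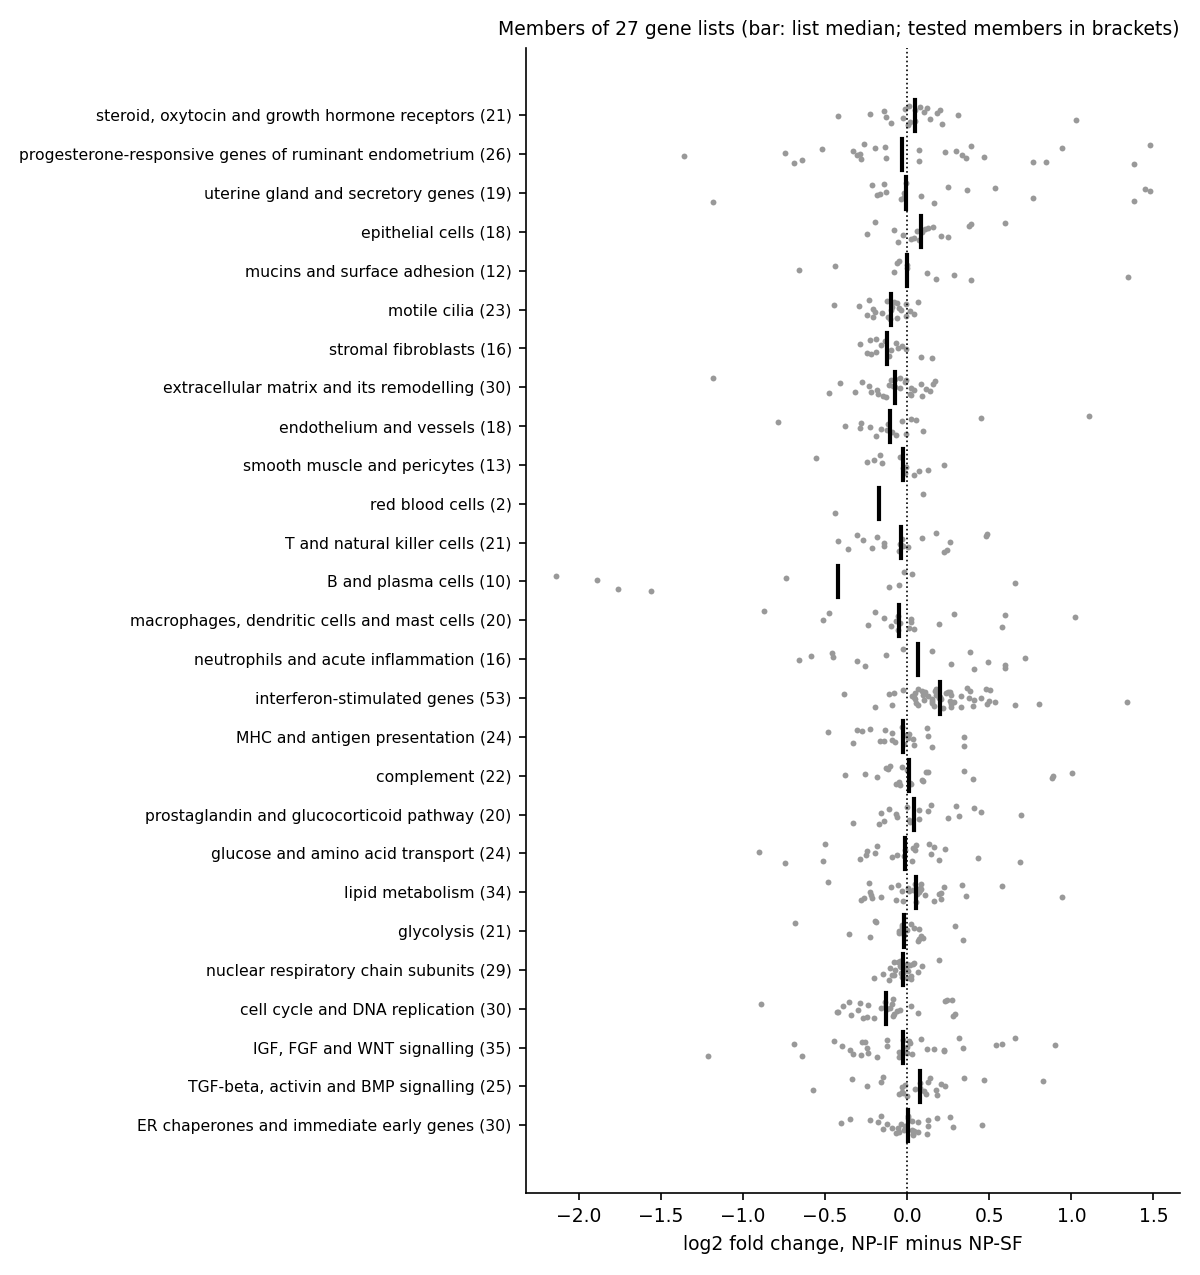
Log2 fold change of NP-IF over NP-SF for every tested member of 27 gene lists (grey points), with the list median as a black bar and the number of tested members in brackets. All medians except those of B and plasma cells and of interferon-stimulated genes lie within 0.2 of 0, and 0 members were called.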

How the data were processed

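Per the labels, RNA was extracted from endometrium with Isol-RNA Lysis Reagent and libraries were made with a TruSeq stranded mRNA kit. HISAT2, StringTie, edgeR and the build UMD 3.1 are named, per the submitters' processing notes. Tool versions, settings and the use of strand in counting are not stated there, so genes with overlapping or antisense partners have uncertain counts. The deposited values are whole-number counts per gene, not normalized by the authors. Lines without a gene name, 1020 in number, were left out. The reference table at hand, of ARS-UCD2.0, served for names only: 19811 names were current symbols and 670 synonyms, and 415 names ended in -2 beside a base entry.

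Columns were matched to samples by title. Genes were filtered with filterByExpr (minimum count 10, minimum total 15), libraries scaled by TMM, and all 25 endometrium libraries fitted in 5 groups with edgeR's quasi-likelihood test and Benjamini-Hochberg adjustment over 19606 genes (called under 0.05). Values after ± are SE for log2 fold changes and SD for CPM (n = 5). Intervals are 95%. Library measures were compared by an exact permutation test over 252 splits (smallest p 0.00794). Gene lists are described by counts and medians, with no set test. R was 4.3.3, DESeq2 1.42.0, limma 3.58.1 and edgeR 4.0.16. Only the edgeR quasi-likelihood test was tried on simulated data, and its outcome is not used here as a measure of power.

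The comparison, the 27 lists and the rule for named genes were chosen with earlier results of these data known. The rule took called genes, up to 12 each way. Where fewer were called it took the next by p if the higher group averaged 1 CPM or more, if 80% or more of 25 pairs of libraries had the order of the fold change, and without LOC names. It added 2 anchors and the 2 other members of smallest p of each list, OXTR and IGF1. The alternatives were RLE scaling, no filter, a mean of at least 1 CPM, DESeq2, limma-voom, fits of 10 or 15 libraries, and leaving out each replicate. The 27 conceptus libraries were not used. No mitochondrially encoded genes were found by name in the table, so their share was not computed. Some genes of the lists are not reported here.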

Additional observations from a re-analysis of the deposited data

Results flagged for a closer look

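In each group of 5, the highest or lowest library was set against the other 4 with Dixon's criterion (gap over range above 0.71) for 27 list means and 126 genes, 306 groups of values in all. Of these 22 (7.19%) exceeded it, where chance gives about 1 in 20 for independent values. The groups of values are not independent: list means stand beside their own members, and genes were named from the same libraries. No excess over chance can be read from this share. All values are log2(CPM + 1).

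NP-IF replicate 5 stood apart in 5 of them. It was low for the motile cilia list (3.95, others 4.84 to 5.09), FOXJ1 (4.74, others 5.94 to 6.26) and DNAH5 (5.77, others 6.68 to 6.93). It was high for LAMA3 (5.84, others 4.48 to 4.86) and SMAD7 (5.39, others 4.80 to 4.95). NP-IF replicate 4 was high for NKG7, a cytotoxic granule gene (2.53), the respiratory subunit COX4I1 (7.26, others 7.13 to 7.16) and the BMP antagonist NOG (1.04). NP-IF replicate 2 was low for the tetraspanin CD9 (7.48, others 7.79 to 7.90).

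NP-SF replicate 2 was high for the B and plasma cell list (2.87, others 1.56 to 1.78), for its member POU2AF1 (3.46, others 0.133 to 0.546) and for ADAMTS1 (8.82, others 7.86 to 8.08). NP-SF replicate 5 was high for the interferon-stimulated list (5.36, others 4.36 to 4.60) and ISG15 (5.99, others 2.50 to 3.14), and low for ACOX3 (5.95, others 6.89 to 7.21). NP-SF replicate 3 was high for the macrophage, dendritic and mast cell list (2.90, others 2.63 to 2.70) and its member CSF1R (4.83, others 4.19 to 4.31), and low for B2M (8.83, others 8.94 to 8.96). NP-SF replicate 1 was low for CSF2RB (1.81) and MKI67 (1.34, others 1.7 to 1.77) and high for LAMA3 (6.73, others 5.53 to 5.86). NP-SF replicate 4 was high for S100A8 (0.822, others 0 to 0.238), a gene near its detection limit.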

How the results depend on the processing

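The count of called genes between NP-IF and NP-SF was 0 under RLE scaling, no filter, a mean of at least 1 CPM, limma-voom, the fits of 10 and of 15 libraries and all 10 fits without 1 replicate, with no adjusted p below 0.0732. With DESeq2 it was 10, and 4 and 2 in NP-SF and in NP-IF against NP-HF; the cause was not tested. Over 17 alternatives the 126 named genes gave 2123 values, of which 2115 stayed on their side of the threshold and 8 passed it, all in DESeq2. Of these genes 96 kept their sign under every alternative and 30 did not. Of 459 list medians 24, in 4 lists (red blood cells, B and plasma cells, neutrophils and TGF-beta signalling), moved by more than the SD of the list mean between libraries. That SD is wide for motile cilia and interferon-stimulated genes, whose medians ran from -0.24 to 0.09 and from 0.03 to 0.45. Leaving out 1 replicate left 675 to 967 genes at an unadjusted p under 0.05. No paired analysis was possible because the titles carry animal numbers, not replicate numbers shared between groups. DESeq2 and limma-voom for the comparisons with NP-HF were added after seeing the data. The median SE was 0.49 under 1 CPM and 0.10 at 100 CPM or more.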

Other observations

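Of the 10 genes that passed in DESeq2, 2 fell outside the rule for named genes and are given after their values were seen. GSTA3-2, the second entry of a glutathione S-transferase that takes part in detoxification and steroid isomerisation, had 11.9 ± 15.9 CPM in NP-IF and 0.444 ± 0.278 CPM in NP-SF (SD, n = 5 each; edgeR log2 fold change 4.71 ± 1.07, adjusted p = 0.488; DESeq2 adjusted p = 0.015). Only 64% of its library pairs were ordered as the fold change. LOC100125946, with no further name in the table, had 1.10 ± 0.598 and 4.01 ± 2.27 CPM without overlap (edgeR log2 fold change -1.86 ± 0.44, adjusted p = 0.544; DESeq2 adjusted p = 0.026).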
